A study of Mus musculus with 7 samples.

Results

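The G1 cell cycle switch of a Hedgehog-driven mouse medulloblastoma line was examined through 10 of the 24047 genes in the count table, chosen by name: the D cyclins Ccnd1, Ccnd2 and Ccnd3, their kinases Cdk4 and Cdk6, their inhibitors Cdkn1b, Cdkn1c, Cdkn2c and Cdkn2d, and Rb1, which encodes the protein that these kinases act on. All 10 were in the table, and 9 had enough counts to be tested. Cdkn1c, at 0 to 5 counts a library, did not. The data were RNA sequencing of SMB21, a medulloblastoma cell line labelled as adult, with the strain background Ptch1tm1Mps/J that was grown as neurospheres in medium with B27. The 3 groups were Ofd1 CRISPR (3 libraries), Kif3a CRISPR (2 libraries) and GFP control (2 libraries). All were Ptch mutant, all had been infected with a lentiCRISPR vector, and RNA was collected 2 weeks after infection. Ofd1 encodes a protein of centrioles and basal bodies and Kif3a a subunit of the kinesin-2 motor, and cells need both to build a primary cilium. No guide sequence is given in the sources used here, nor is it said whether clones or pools of cells were sequenced. The series text counts 3 GFP control replicates, of which 2 were analysed here. Replicates are labelled biological, and p-values measure the spread between these libraries.

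D cyclins bind Cdk4 or Cdk6 in G1, and the complexes phosphorylate the retinoblastoma protein Rb, which then releases E2F transcription factors to switch on the genes of S phase. INK4 inhibitors such as p18 (Cdkn2c) and p19 (Cdkn2d) bind the kinases themselves, while Cip/Kip inhibitors such as p27 (Cdkn1b) and p57 (Cdkn1c) bind cyclin and kinase together. Sonic hedgehog raises D cyclins in granule neuron progenitors of the cerebellum, the cells from which medulloblastomas of Ptch1 mutant mice arise.

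Library totals ran from 17961767 to 23022701 counts, and a level is given as CPM, counts divided by the TMM-adjusted size of the library, so that 3 counts equal 0.130 to 0.167 CPM. All 10 granule neuron progenitor markers were detected in all 7 libraries, with summed levels of 3589 to 4040 CPM in Ofd1 CRISPR, 3815 to 3937 CPM in Kif3a CRISPR and 3335 to 3408 CPM in GFP control libraries. Of these 10, 5 were called higher and 1 lower in each CRISPR group against GFP control. The background for such marker counts is the share of all 12875 tested genes. In Ofd1 CRISPR 6.79% of them were called higher and 8.09% lower, and in Kif3a CRISPR 9.19% higher and 10.9% lower. Summed postmitotic granule neuron markers were 687 to 775 CPM in Ofd1 CRISPR, 744 to 833 CPM in Kif3a CRISPR and 564 to 583 CPM in GFP control libraries, and of the 8 tested, 4 were called higher and 1 lower in Ofd1 CRISPR and 3 higher and 1 lower in Kif3a CRISPR. Among them Dcx, of young neurons, had 346, 284 and 300 CPM in Ofd1 CRISPR, 427 and 319 CPM in Kif3a CRISPR, and 167 and 169 CPM in GFP control libraries. Rbfox3 went the other way, with 186, 228 and 216 CPM in Ofd1 CRISPR and 185 and 224 CPM in Kif3a CRISPR libraries. In GFP control libraries Rbfox3 had 277 and 289 CPM. Gabra6, of mature granule neurons, was at 0 in all. Summed neural stem cell and astrocyte markers were 758 to 795 CPM in Ofd1 CRISPR, 742 CPM in both Kif3a CRISPR and 853 to 911 CPM in GFP control libraries, with Slc1a3 at 119 to 160 CPM and Aqp4 at 0. Of the 7 tested, 2 were called lower and none higher in each CRISPR group. Sox9 had 126, 156 and 153 CPM in Ofd1 CRISPR, 123 and 138.5 in Kif3a CRISPR, and 224 and 231.5 in GFP control libraries. Gfap moved differently, at 134, 34.9 and 71.1 CPM in Ofd1 CRISPR, 92.1 and 59.0 in Kif3a CRISPR, and 43.3 and 43.4 in GFP control libraries. Summed oligodendrocyte lineage markers were 96.0 to 183 CPM in Ofd1 CRISPR, 103 to 145 CPM in Kif3a CRISPR and 271 to 285 CPM in GFP control libraries. GFP control replicate 1 stood apart in 11 microglia and macrophage markers, at 18.9 CPM in sum against 2.41 to 3.90 CPM in the other 6 libraries, with Cx3cr1 at 0 in all 7. These marker levels move with the groups or with 1 control library, and their part in the results was not tested. In bulk RNA, fewer cells of a type and less RNA per cell cannot be told apart. The targeted transcript Ofd1 had 21.0, 20.03 and 22.0 CPM in Ofd1 CRISPR, against 22.6 and 23.2 CPM in GFP control libraries, and did not pass the test (adjusted p = 0.398). Kif3a had 73.9 and 60.5 CPM in Kif3a CRISPR, against 104 and 104 CPM in GFP control libraries (adjusted p = 0.000855). Without the edited sites, a transcript level does not show whether the protein was lost.

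Upstream sequence is shown for the called genes that the RefSeq promoter table (GRCm38.p6) holds, since each of them was called lower than GFP control in at least 1 CRISPR group. The table held promoters of 6 of the 10 genes. Ccnd1, Ccnd2, Cdkn1c and Rb1 are named only. Each run is the 250 bases before a transcription start, 5′ to 3′ on the plus strand, and capitals mark matches on either strand to the GC box GGGCGG or, with at most 1 mismatch, to the Gli motif GACCACCCA. Cdk6 (chr5:3343643-3343892) has a single start in the table, as does Cdkn1b (chr6:134920151-134920400), and Ccnd3 has starts at chr17:47504801-47505050 and chr17:47593217-47593466.
Cdk6: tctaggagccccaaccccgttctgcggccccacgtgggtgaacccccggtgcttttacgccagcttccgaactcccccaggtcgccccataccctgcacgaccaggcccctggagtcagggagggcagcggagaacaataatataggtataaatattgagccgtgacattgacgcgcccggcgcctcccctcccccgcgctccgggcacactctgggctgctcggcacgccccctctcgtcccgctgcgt
Cdkn1b: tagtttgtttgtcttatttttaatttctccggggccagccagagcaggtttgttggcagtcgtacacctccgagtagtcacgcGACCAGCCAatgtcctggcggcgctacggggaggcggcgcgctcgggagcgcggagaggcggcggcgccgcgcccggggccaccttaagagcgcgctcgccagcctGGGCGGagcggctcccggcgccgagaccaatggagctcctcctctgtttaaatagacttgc
Ccnd3, first start: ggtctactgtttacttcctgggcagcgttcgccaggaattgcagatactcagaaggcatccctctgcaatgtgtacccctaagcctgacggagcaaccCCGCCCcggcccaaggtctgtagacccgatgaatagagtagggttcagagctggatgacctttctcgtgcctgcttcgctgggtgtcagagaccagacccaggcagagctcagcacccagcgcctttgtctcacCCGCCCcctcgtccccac
Ccnd3, second start: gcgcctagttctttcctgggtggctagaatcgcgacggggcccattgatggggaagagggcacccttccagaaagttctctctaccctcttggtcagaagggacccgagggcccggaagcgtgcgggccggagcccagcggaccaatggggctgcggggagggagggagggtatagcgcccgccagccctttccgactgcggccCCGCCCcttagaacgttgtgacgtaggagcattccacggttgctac

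The Cdk6 window held none of the motifs searched, and 66.0% of its bases were G or C, against a median of 52.4% over all 32851 promoters. In Cdkn1b, a GC box began 61 bases before the start, and GACCAGCCA, which differs from the Gli motif at 1 base, began 167 bases before it. The first Ccnd3 window held 2 GC boxes and the second 1. No promoter of the 6 genes held the E2F motifs TTTCGCGC, TTTGGCGC or TTTCCCGC on either strand. Among all promoters, 32.7% held the GC box, 5.79% the Gli motif with at most 1 mismatch and 1.53% any of the E2F motifs. A match is a run of letters, not a binding site, and the absence of one says nothing of the factor. The counts were made on mm9, so only sequences and names were taken from this reference.

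Among the D cyclins, Ccnd1 was called lower in both CRISPR groups, Ccnd3 in Kif3a CRISPR, and Ccnd2 in neither direction. Ccnd1, cyclin D1, had 456, 591 and 596 CPM in Ofd1 CRISPR, 467 and 569 CPM in Kif3a CRISPR, and 803 and 808 CPM in GFP control libraries. All 5 CRISPR libraries lay below both controls, and replicate 1 of each CRISPR group was its lowest. Ofd1 CRISPR replicate 1 also stood apart in the summed RNA quality signs Malat1, Neat1 and Rmrp, at 365 CPM against 183 to 289 CPM in the other 6. Of these, Malat1 alone stood apart, at 327 CPM against 143 to 253 CPM. Neat1 (36.2 CPM) and Rmrp (1.63 CPM) of this library lay within the range of the others. The part of these signs in its Ccnd1 level and other levels was not tested. The difference was −0.56 on the log2 scale for Ofd1 CRISPR against GFP control (SE 0.113, 95% interval −0.80 to −0.31, adjusted p = 0.00775) and −0.64 for Kif3a CRISPR against GFP control (SE 0.126, −0.91 to −0.36, adjusted p = 0.0047), by edgeR's quasi-likelihood test. The Ofd1 CRISPR call held without any 1 library, while the Kif3a CRISPR call was lost without Kif3a CRISPR replicate 1 (adjusted p = 0.103). The 2 comparisons share the GFP control libraries, so they are not independent.

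Ccnd2, cyclin D2, had the opposite sign. It had 1091, 851 and 911 CPM in Ofd1 CRISPR, 958 and 839 CPM in Kif3a CRISPR, and 805 and 805 CPM in GFP control libraries. Every CRISPR library lay above both controls, but the CRISPR libraries varied far more than the controls, and the replicate 1 libraries that were lowest in Ccnd1 were highest in Ccnd2. Neither difference passed the test, at 0.24 for Ofd1 CRISPR against GFP control (SE 0.100, 0.02 to 0.46, adjusted p = 0.128) and 0.16 for Kif3a CRISPR against GFP control (SE 0.109, −0.08 to 0.40, adjusted p = 0.332).

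Ccnd3, cyclin D3, had 91.6, 98.5 and 89.9 CPM in Ofd1 CRISPR, 70.4 and 76.5 CPM in Kif3a CRISPR, and 113 and 104 CPM in GFP control libraries. The 3 groups did not overlap, and the Kif3a CRISPR libraries were lowest. Ccnd3 fell by 0.57 on the log2 scale in Kif3a CRISPR against GFP control (SE 0.0817, −0.75 to −0.39, adjusted p = 0.000736), and the call held without any 1 library. In Ofd1 CRISPR against GFP control the difference was −0.22 (SE 0.0737, −0.38 to −0.06, adjusted p = 0.0643) and did not pass. Tested directly, Ccnd3 was 0.35 higher in Ofd1 CRISPR than in Kif3a CRISPR cells (SE 0.0754, 0.18 to 0.51), with an adjusted p of 0.134 by edgeR's quasi-likelihood test and 0.0246 by DESeq2.

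**Figure D1:**
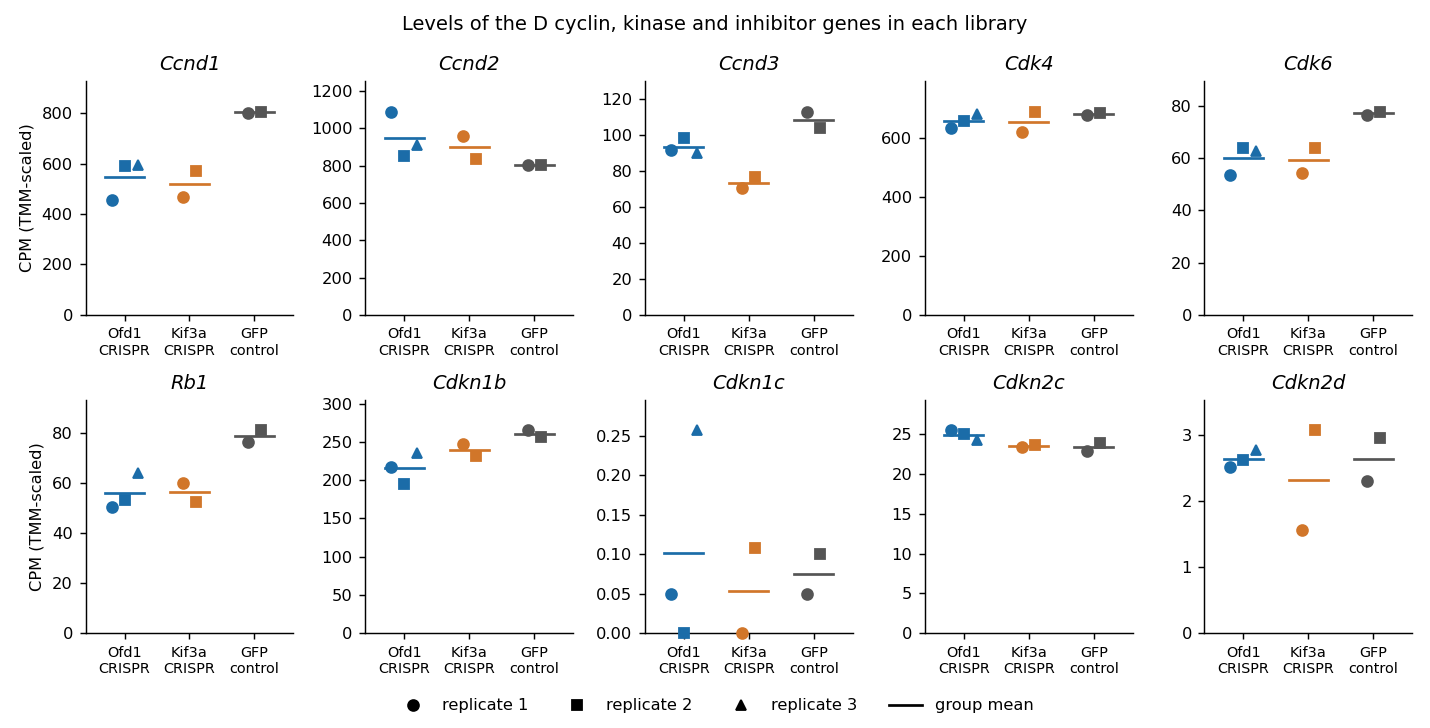
Level of each of the 10 genes in every library, in TMM-scaled CPM on a linear axis per panel; points are libraries, shaped by replicate number, and lines are group means. Ccnd1, Ccnd3, Cdk6, Rb1 and Cdkn1b lie below both GFP control libraries in all 5 CRISPR libraries, Ccnd2 lies above them, and Cdkn1c stays at or under 0.257 CPM throughout.

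Each D cyclin was also expressed as a share of the 3, per kilobase of its longest annotated protein-coding transcript, which does not depend on scaling between libraries. Ccnd1 made up 36.1%, 46.6% and 46.1% in Ofd1 CRISPR, 40.4% and 47.4% in Kif3a CRISPR, and 54.3% and 55.0% in GFP control libraries. Ccnd2 made up 51.1%, 39.6% and 41.6% in Ofd1 CRISPR, 48.9% and 41.3% in Kif3a CRISPR, and 32.2% and 32.4% in GFP control libraries. Thus Ccnd1 held the largest share in both controls, and in the CRISPR groups Ccnd2 exceeded it in replicate 1 and stayed below it in the other 3 libraries. That order depends on the transcript length used: with the median length, Ccnd1 averaged 12.3% in Ofd1 CRISPR, 12.4% in Kif3a CRISPR and 18.8% in GFP control libraries, below Ccnd2 in each group, and without any length correction Ccnd2 exceeded Ccnd1 in all 5 CRISPR libraries and nearly equalled it in the controls, where Ccnd2 averaged 46.8% and Ccnd1 46.9%. The Ccnd1 share averaged 42.9% ± 5.91 in Ofd1 CRISPR (SD, n = 3) and 43.9% ± 5.01 in Kif3a CRISPR (SD, n = 2), against 54.7% ± 0.515 in GFP control libraries (SD, n = 2). The groups do not overlap, and the exact two-sided permutation p was 0.2 for Ofd1 CRISPR and 0.333 for Kif3a CRISPR against GFP control, each the smallest that so few libraries allow.

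Ccnd3 made up 12.8%, 13.7% and 12.3% in Ofd1 CRISPR, 10.8% and 11.3% in Kif3a CRISPR, and 13.6% and 12.6% in GFP control libraries, so that Ofd1 CRISPR overlapped the controls and Kif3a CRISPR did not. The D cyclins together came to 338, 339 and 346 CPM per kilobase in Ofd1 CRISPR, 310 and 321 in Kif3a CRISPR, and 395 and 392 in GFP control libraries. In this sum each group kept apart from the others and replicates differed little, although Ccnd1 and Ccnd2 each varied within the CRISPR groups. That separation is shown for the longest transcripts only. The median length is 994.5 bases for Ccnd2 and 889.5 for Ccnd3, against 6330 and 2113 for the longest, while Ccnd1 has 3740 for both. With the median length Ccnd2, which lay above both controls in every CRISPR library, weighs more. The lower sum and the separation therefore cannot be carried over to that length, on which the sum was not tested. The exact p was again the smallest possible, 0.2 for Ofd1 CRISPR and 0.333 for Kif3a CRISPR against GFP control.

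**Figure D2:**
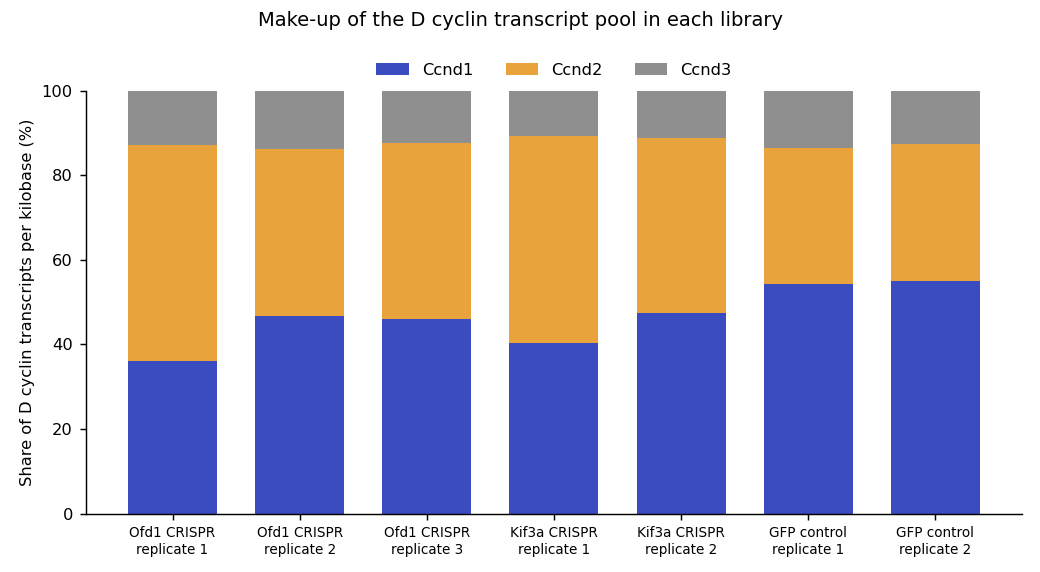
Share of each D cyclin in the sum of the 3, in percent of CPM per kilobase of the longest protein-coding transcript; one stacked bar per library, with the axis from 0 to the whole sum. The Ccnd1 share is 36.1% to 47.4% in the 5 CRISPR libraries and 54.3% to 55.0% in the 2 GFP control libraries.

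The kinases differed in whether they were called. Cdk4, the catalytic partner of D cyclins with the higher level per length here, had 634, 659 and 682 CPM in Ofd1 CRISPR, 622 and 691 CPM in Kif3a CRISPR, and 680.0 and 686 CPM in GFP control libraries. The groups overlapped. The difference was −0.05 for Ofd1 CRISPR against GFP control (−0.21 to 0.10, adjusted p = 0.648) and −0.06 for Kif3a CRISPR against GFP control (−0.23 to 0.11, adjusted p = 0.632). The intervals bound any change of Cdk4 but do not show that there was none.

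Cdk6, the second kinase of the D cyclins, had 53.6, 63.8 and 62.8 CPM in Ofd1 CRISPR, 54.5 and 63.9 CPM in Kif3a CRISPR, and 76.6 and 77.9 CPM in GFP control libraries. As for Ccnd1, all CRISPR libraries lay below both controls and replicate 1 was the lowest in each CRISPR group. Cdk6 fell by 0.36 in Ofd1 CRISPR against GFP control (SE 0.0921, adjusted p = 0.0217) and by 0.39 in Kif3a CRISPR against GFP control (SE 0.102, adjusted p = 0.0202). With a single control the calls were lost: the adjusted p was 0.118 for Ofd1 CRISPR and 0.0945 for Kif3a CRISPR without GFP control replicate 1, and with replicate 2 left out instead it was 0.139 for Ofd1 CRISPR and 0.104 for Kif3a CRISPR. The Kif3a CRISPR call was also lost without Kif3a CRISPR replicate 1 (adjusted p = 0.217).

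Rb1, which encodes the pocket protein that holds E2F factors in check, had 50.6, 53.5 and 64.3 CPM in Ofd1 CRISPR, 60.04 and 52.6 CPM in Kif3a CRISPR, and 76.5 and 81.2 CPM in GFP control libraries. All CRISPR libraries lay below both controls. Rb1 fell by 0.49 in Ofd1 CRISPR against GFP control (SE 0.101, −0.71 to −0.27, adjusted p = 0.00788) and by 0.48 in Kif3a CRISPR against GFP control (SE 0.111, −0.73 to −0.24, adjusted p = 0.0104). Without GFP control replicate 2 the adjusted p was 0.0726 for Ofd1 CRISPR and 0.0706 for Kif3a CRISPR, and the Kif3a CRISPR call was also lost without Kif3a CRISPR replicate 1 (0.0540) or 2 (0.0954).

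Of the Cip/Kip inhibitors, Cdkn1b, which encodes p27, had 217, 195 and 236 CPM in Ofd1 CRISPR, 248 and 231 CPM in Kif3a CRISPR, and 265 and 256 CPM in GFP control libraries. All CRISPR libraries lay below both controls. The difference was −0.27 for Ofd1 CRISPR against GFP control (SE 0.0812, −0.45 to −0.09, adjusted p = 0.0447), which is called lower but close to the threshold of 0.05, and −0.12 for Kif3a CRISPR against GFP control (SE 0.0893, −0.32 to 0.07, adjusted p = 0.362). The Ofd1 CRISPR call held without Ofd1 CRISPR replicate 3 and was lost without any other 1 library, at an adjusted p of 0.256 and 0.158 without GFP control replicates 1 and 2, 0.0677 and 0.134 without Ofd1 CRISPR replicates 1 and 2, and 0.0714 and 0.0712 without Kif3a CRISPR replicates 1 and 2. It was lost too with library totals in place of TMM factors (0.0725) and with the 2 groups alone in the model (0.0605).

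Cdkn1c, which encodes p57, had 1, 0 and 5 counts in Ofd1 CRISPR, 0 and 2 counts in Kif3a CRISPR, and 1 and 2 counts in GFP control libraries. These counts are at or near the floor of 3, and no fold is given. The p18 gene Cdkn2c had 25.5, 25.04 and 24.2 CPM in Ofd1 CRISPR, 23.4 and 23.7 CPM in Kif3a CRISPR, and 22.9 and 23.9 CPM in GFP control libraries. The Ofd1 CRISPR libraries lay just above the rest, with a difference of 0.09 against GFP control (−0.09 to 0.28, adjusted p = 0.503), and Kif3a CRISPR differed from GFP control by 0.01 (−0.20 to 0.21, adjusted p = 0.962).

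Cdkn2d, the gene of the INK4 protein p19, was scarce, with 2.51, 2.62 and 2.78 CPM in Ofd1 CRISPR, 1.56 and 3.07 CPM in Kif3a CRISPR, and 2.31 and 2.96 CPM in GFP control libraries. The groups overlapped. At 36 to 59 counts a library the intervals were wide, from −0.59 to 0.59 for Ofd1 CRISPR and from −0.87 to 0.45 for Kif3a CRISPR against GFP control, so that a change of moderate size was not detectable at this depth.

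**Figure D3:**
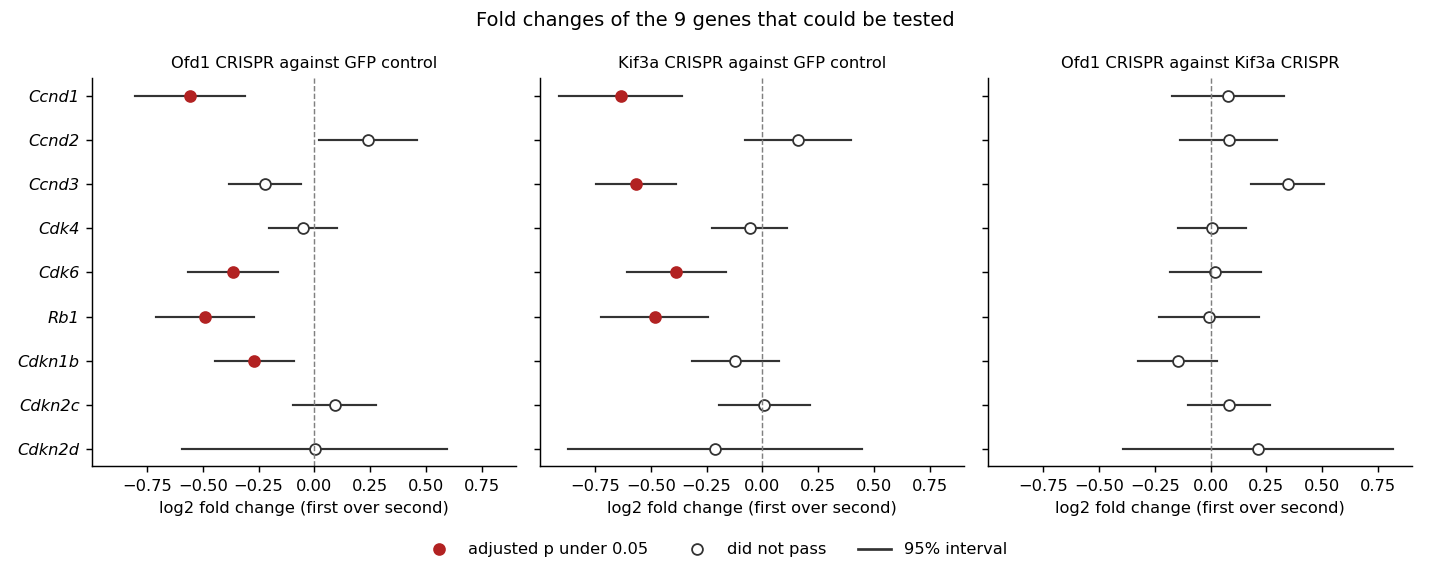
Log2 fold change of the 9 tested genes in each CRISPR group against GFP control and between the CRISPR groups (Ofd1 CRISPR over Kif3a CRISPR), with 95% intervals; filled points have an adjusted p under 0.05. Against GFP control, Ccnd1, Cdk6 and Rb1 are called lower in both CRISPR groups, Cdkn1b in Ofd1 CRISPR and Ccnd3 in Kif3a CRISPR, and nothing is called between the CRISPR groups.

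Counted over the 9 tested genes, 4 were called lower, none higher and 5 did not pass in Ofd1 CRISPR against GFP control, where 14.9% of all 12875 tested genes were called, 8.09% lower and 6.79% higher. The median was −0.22 for the 9 genes and 0.00 for all genes. In Kif3a CRISPR against GFP control, 4 of 9 were again called lower and none higher, against 10.9% and 9.19% of all genes and 20.1% either way. The median was −0.21 for the 9 genes and 0.01 for all. The number called lower was 2 and 1 in Ofd1 CRISPR without GFP control replicates 1 and 2, and in Kif3a CRISPR 2 without GFP control replicate 2 and 1 without Kif3a CRISPR replicate 1. Ofd1 CRISPR lay apart from GFP control in 7 of the 9 genes, 2 above and 5 below, against 49.6% of all genes, 24.5% above and 25.0% below. Kif3a CRISPR lay apart from it in 6 of the 9, 1 above and 5 below, against 66.5% of all genes, 34.0% above and 32.4% below.

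Between the CRISPR groups, none of the 9 genes was called by edgeR's quasi-likelihood test, where 0.179% of all tested genes were called, 0.171% higher and 0.00777% lower. At an unadjusted p under 0.05 there was 1, Ccnd3, and DESeq2 called that gene too. Ofd1 CRISPR lay above Kif3a CRISPR without overlap in 2 genes, Ccnd3 and Cdkn2c, and below it in none, against a background of 23.0% either way, 12.5% above and 10.5% below. The 95% interval of Ofd1 CRISPR against Kif3a CRISPR was −0.17 to 0.33 for Ccnd1, −0.14 to 0.30 for Ccnd2, −0.18 to 0.23 for Cdk6, −0.23 to 0.22 for Rb1 and −0.33 to 0.03 for Cdkn1b. These bounds do not show that the mutations act alike.

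Levels were set against each other per kilobase of the longest protein-coding transcript. In Ofd1 CRISPR libraries Cdk4 was highest, at 321 ± 11.5 CPM per kilobase (SD, n = 3), followed by Ccnd2 at 150.2 ± 19.7 and Ccnd1 at 146 ± 21.2, which overlapped. Cdkn1b at 47.5 ± 4.48 and Ccnd3 at 44.2 ± 2.15 overlapped as well, and below them came Rb1 at 12.1, Cdkn2c at 10.1, Cdk6 at 5.21, Cdkn2d at 1.85 and Cdkn1c at 0.0537. Kif3a CRISPR libraries had the same order, with Ccnd2 at 142.0 ± 13.4 and Ccnd1 at 139 ± 19.3 (SD, n = 2), also overlapping, between Cdk4 at 320 ± 23.8 and Cdkn1b at 52.6. In GFP control libraries Cdk4 was highest too, at 333, but Ccnd1 came before Ccnd2, at 215 ± 0.908 and 127 ± 0.0223 (SD, n = 2). Cdkn1b at 57.2, Ccnd3 at 51.5, Rb1 at 16.9, Cdkn2c at 9.46, Cdk6 at 6.70, Cdkn2d at 1.85 and Cdkn1c at 0.0393 followed, and no neighbours overlapped. The transcripts in use are not known: with the median length of a gene's transcripts, Ccnd2 exceeded Ccnd1 in all 3 groups and, at a mean over all libraries of 899 CPM per kilobase, also Cdk4 at 624, while Cdk6 moved to 92.8, against 5.62 with the longest. The order above therefore holds for the longest transcripts only.

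**Figure D4:**
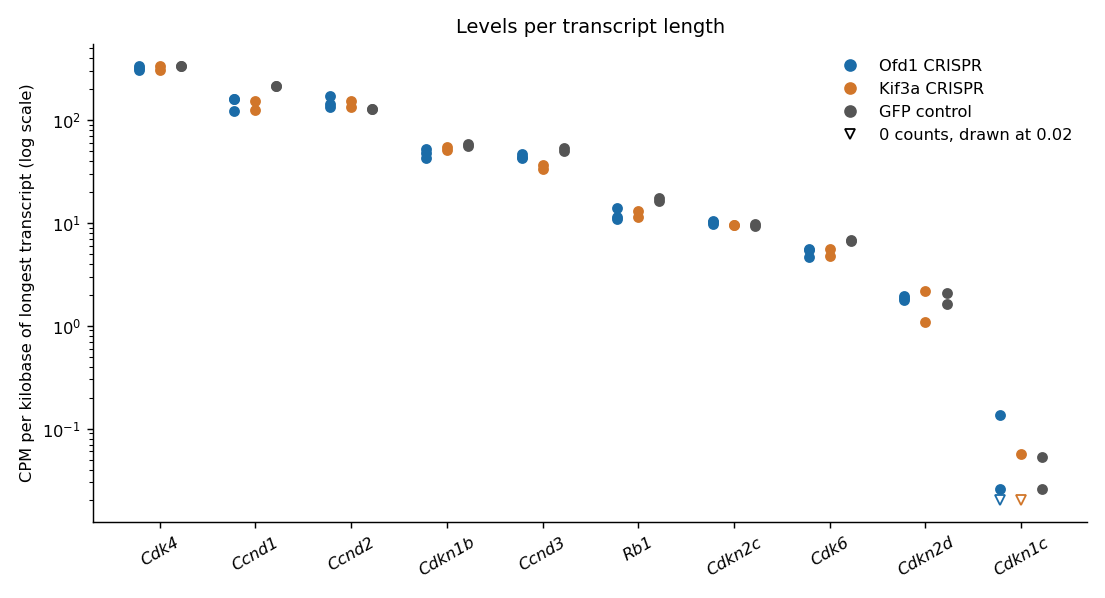
Level of the 10 genes in CPM per kilobase of the longest protein-coding transcript, on a log axis, by group; points are libraries, and open triangles are libraries with 0 counts. On this length Cdk4 is highest in every group, and Ccnd1 and Ccnd2 overlap in the CRISPR groups but not in the GFP control libraries.

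The inhibitors were dominated by Cdkn1b on the same scale. Its share of the sum of the 4 inhibitors was 79.8% ± 1.59 in Ofd1 CRISPR (SD, n = 3) and 82.5% ± 1.86 in Kif3a CRISPR (SD, n = 2), against 83.5% ± 1.14 in GFP control libraries (SD, n = 2). Ofd1 CRISPR did not overlap the controls (exact p = 0.2, the smallest possible) and Kif3a CRISPR did (exact p = 0.667).

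Cdkn1a, the remaining Cip/Kip gene, which encodes p21, had 2.51, 3.84 and 3.55 CPM in Ofd1 CRISPR, 2.12 and 2.32 CPM in Kif3a CRISPR, and 11.1 and 6.92 CPM in GFP control libraries. It fell by 1.45 in Ofd1 CRISPR (SE 0.228, adjusted p = 0.00197) and by 2.02 in Kif3a CRISPR against GFP control (SE 0.268, adjusted p = 0.000429), and held without any 1 library. The control that was higher, replicate 1, is the one with the microglia and macrophage markers. Cdkn2a, whose products are p16 and p19Arf, had 184, 193 and 199 CPM in Ofd1 CRISPR libraries. In Kif3a CRISPR it had 162 and 200.1 CPM, and in GFP control libraries 210.5 and 201 CPM. It did not pass in either comparison, at −0.10 in Ofd1 CRISPR (adjusted p = 0.456) and −0.19 in Kif3a CRISPR (adjusted p = 0.188, or 0.0346 without Kif3a CRISPR replicate 2). Cdkn2b, the gene of the INK4 protein p15, had 11 counts in GFP control replicate 1 and none in the other 6 libraries, and was not tested.

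Around the switch, the other genes of the pathway were counted by role. Of 12 pocket proteins and E2F factors, 2 were called lower in each comparison with GFP control and none higher, with a median of −0.10 in both. Over all tested genes 8.09% were called lower and 6.79% higher in Ofd1 CRISPR, and 10.9% lower and 9.19% higher in Kif3a CRISPR, and these shares are the background for the lists that follow. Rbl1, which encodes the pocket protein p107, had 43.0, 48.7 and 57.0 CPM in Ofd1 CRISPR, 49.3 and 54.5 CPM in Kif3a CRISPR, and 76.3 and 76.6 CPM in GFP control libraries, with no overlap. It fell by 0.62 in Ofd1 CRISPR (SE 0.102, adjusted p = 0.00235) and by 0.56 in Kif3a CRISPR (SE 0.113, adjusted p = 0.00516). E2f1, an activator of S phase genes, fell by 0.33 in Ofd1 CRISPR (adjusted p = 0.032) and by 0.54 in Kif3a CRISPR (adjusted p = 0.00342). The Ofd1 CRISPR count was 1 without either GFP control library or without Ofd1 CRISPR replicate 1 or 2, when E2f1 lost its call, and the Kif3a CRISPR count was 0 without Kif3a CRISPR replicate 1.

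Downstream of E2F, 23 of 25 S phase target genes had negative log2 fold changes in Ofd1 CRISPR and 22 of 25 in Kif3a CRISPR against GFP control, with medians of −0.16 and −0.20. Of all 12875 genes, 6372 lay below 0 in Ofd1 CRISPR and 6266 in Kif3a CRISPR. In Ofd1 CRISPR, 4 of 25 were called lower and none higher, against 8.09% and 6.79% of all genes. In Kif3a CRISPR, 5 were called lower and 1, Tyms, which encodes thymidylate synthase, higher, against 10.9% and 9.19% of all genes. Cdt1, a licensing factor of replication origins, had 144, 170 and 157 CPM in Ofd1 CRISPR, 123 and 145 CPM in Kif3a CRISPR, and 207 and 208 CPM in GFP control libraries. It fell by 0.41 in Ofd1 CRISPR (adjusted p = 0.00909, but 0.0674 and 0.0625 with 1 control left out) and by 0.63 in Kif3a CRISPR (adjusted p = 0.000914, held without any 1 library). Rrm2, a subunit of ribonucleotide reductase, fell by 0.54 in Ofd1 CRISPR (adjusted p = 0.0255) and the replication factor Cdc45 by 0.48 in Kif3a CRISPR (adjusted p = 0.0106). Cdc6, which loads the replicative helicase, fell by 0.28 in Ofd1 CRISPR (adjusted p = 0.0297) and Mcm3, a subunit of that helicase, fell by 0.28 in Kif3a CRISPR (adjusted p = 0.0278). Rrm2, Cdc45 and Cdc6 were called lower in both comparisons, so giving a single group for each does not mark them as particular to it. Mcm3 was called in Kif3a CRISPR and not in Ofd1 CRISPR. These counts depend on single libraries: none was called lower in Ofd1 CRISPR without GFP control replicate 1 or 2 and 2 without Ofd1 CRISPR replicate 1 or Kif3a CRISPR replicate 1, while in Kif3a CRISPR the number was 2 and 1 with GFP control replicate 1 and 2 left out, 1 without Kif3a CRISPR replicate 1 and 9 without Ofd1 CRISPR replicate 1. With the 2 compared groups alone in the model, 11 were called lower in Kif3a CRISPR. Tyms lost its call without any 1 GFP control or Kif3a CRISPR library.

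Of the cyclin E, cyclin A and Cdk2 genes, which act after the D cyclins, Ccne2 (cyclin E2) was the 1 of 6 called in Ofd1 CRISPR, where it fell by 0.67 (SE 0.134, adjusted p = 0.00685, or 0.0566 without GFP control replicate 1), and none was called in Kif3a CRISPR. The list's median was −0.05 in Ofd1 CRISPR and −0.14 in Kif3a CRISPR. Ccne2 had 25.3, 32.4 and 39.1 CPM in Ofd1 CRISPR, 39.3 and 37.9 CPM in Kif3a CRISPR, and 52.8 and 50.0 CPM in GFP control libraries. Its Kif3a CRISPR difference was −0.41 (adjusted p = 0.0684), and it was called without Ofd1 CRISPR replicate 1 (0.00638) or 3 (0.0197). Ccne2 was also called lower in Kif3a CRISPR by edgeR with the 2 compared groups alone in the model (0.00193) and without a filter (0.0333). The lack of a call in Kif3a CRISPR thus depends on the model.

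Among 13 genes for the assembly, activation and turnover of D cyclin kinases and p27, 1 was called higher and none lower in Ofd1 CRISPR, and 3 higher and 1 lower in Kif3a CRISPR, with medians of −0.03 and 0.01. Cdc37, a chaperone partner that loads Cdk4 onto Hsp90, rose by 0.28 in Ofd1 CRISPR (adjusted p = 0.0157) and by 0.24 in Kif3a CRISPR (adjusted p = 0.0312). In Kif3a CRISPR the signalosome subunit Cops5 rose by 0.28 (adjusted p = 0.0211), the Cdk-activating kinase Cdk7 rose by 0.32 (adjusted p = 0.0274) and Ubac1, a subunit of a ubiquitin ligase for p27, fell by 0.37 (adjusted p = 0.0128). None of these calls held with a single GFP control library, and the Kif3a CRISPR ones were also lost without Kif3a CRISPR replicate 1 and, apart from Ubac1, without its replicate 2.

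Of 12 proliferation and mitosis markers, 1 was called lower in Ofd1 CRISPR and 4 in Kif3a CRISPR, and none higher, with medians of −0.03 and −0.16. The 1 of 12 in Ofd1 CRISPR is near the background of 8.09%, and the background in Kif3a CRISPR is 10.9%. Topoisomerase gene Top2a fell by 0.31 in Ofd1 CRISPR (adjusted p = 0.0417) and by 0.38 in Kif3a CRISPR (adjusted p = 0.0217). In Kif3a CRISPR the mitotic kinase genes Aurka and Aurkb fell by 0.31 (adjusted p = 0.0229) and by 0.35 (adjusted p = 0.0253). With library totals in place of TMM factors, none was called lower and 1 higher in Ofd1 CRISPR, and with the 2 compared groups alone none was called lower, while DESeq2 called 3 lower, as did the model without a filter. The Ofd1 CRISPR count was 3 without Ofd1 CRISPR replicate 3 and 0 without any other 1 library, and the Kif3a CRISPR count was 0 without either GFP control library or Kif3a CRISPR replicate 1, and 2 without Kif3a CRISPR replicate 2. Mki67, the gene of the Ki-67 antigen, differed by 0.03 in Ofd1 CRISPR and 0.02 in Kif3a CRISPR and did not pass (adjusted p = 0.858 and 0.917).

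**Figure D5:**
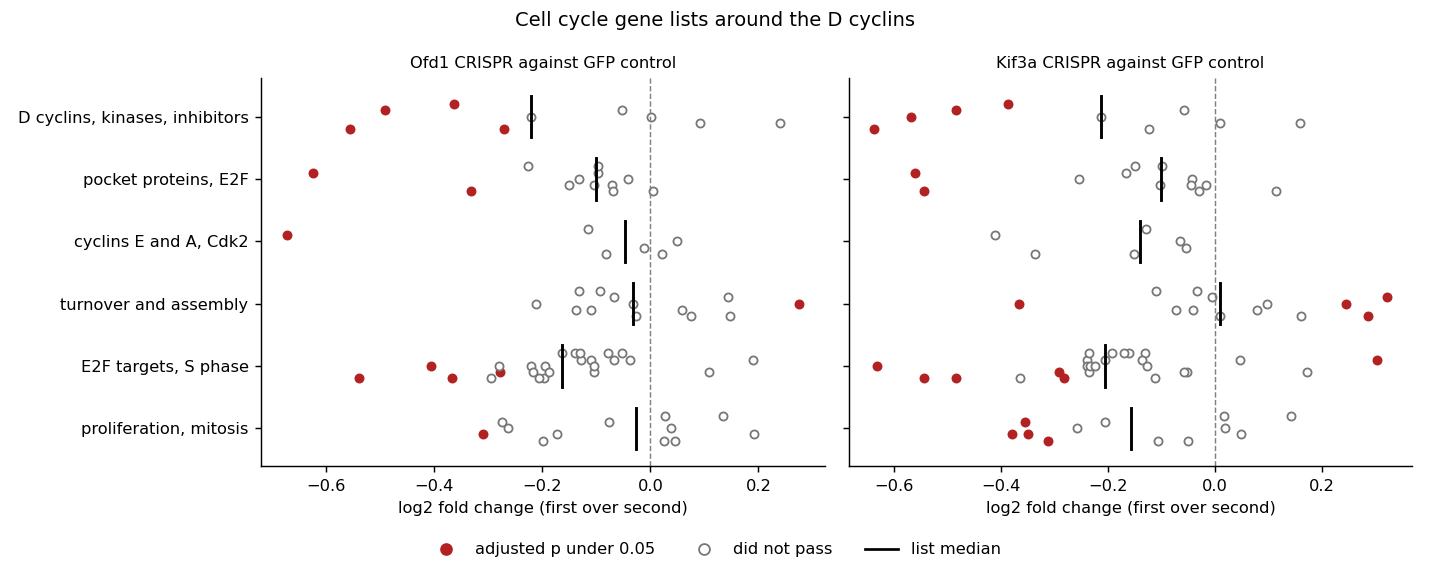
Log2 fold change of each tested gene by list, in Ofd1 CRISPR and Kif3a CRISPR against GFP control; points are genes, filled where the adjusted p is under 0.05, and short lines are list medians. For the E2F targets of S phase, 23 of 25 genes lie below 0 in Ofd1 CRISPR and 22 of 25 in Kif3a CRISPR, while 4 are called in Ofd1 CRISPR and 6 in Kif3a CRISPR.

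Known regulators of D cyclin or kinase inhibitor genes, with readouts of the Hedgehog pathway, formed a list of 11 genes. Of these, 6 were called lower and none higher in both comparisons with GFP control, with medians of −0.26 in Ofd1 CRISPR and −0.38 in Kif3a CRISPR. The list is mixed, so its count gives no direction for the D cyclins. Gli1, a transcription factor and target of the pathway, had 167.5, 326 and 265 CPM in Ofd1 CRISPR, 201.5 and 309 CPM in Kif3a CRISPR, and 427 and 477 CPM in GFP control libraries. It fell by 0.84 in Ofd1 CRISPR (adjusted p = 0.0257) and by 0.82 in Kif3a CRISPR (adjusted p = 0.0349), with 0.102 and 0.145 by DESeq2. Hhip, a decoy for the ligand, fell by 1.47 in Ofd1 CRISPR (adjusted p = 0.0023) and by 1.45 in Kif3a CRISPR (adjusted p = 0.00315). Ptch1, which is both the mutated receptor gene of this line and a target of the pathway, fell by 0.91 in Ofd1 CRISPR (adjusted p = 0.00265) and by 1.25 in Kif3a CRISPR (adjusted p = 0.000559). Mycn, which promotes Ccnd1 and Ccnd2 expression in granule neuron progenitors, fell by 0.30 in Ofd1 CRISPR (adjusted p = 0.0281) and by 0.56 in Kif3a CRISPR (adjusted p = 0.00144). The Ofd1 CRISPR count was 2 with either GFP control library left out, and the Kif3a CRISPR count was 2 without Kif3a CRISPR replicate 1.

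The genes whose levels ran closest to Ccnd1 over the 7 libraries, by Pearson's r of log2 CPM among the 9718 tested genes that averaged 10 CPM or more, were Ier5 (r = 0.997), Rad54b (0.996), Fam181b (0.995), Cdk6 (0.995) and Mid1ip1 (0.995). Cdk6 is itself among the 10 genes described here. The 7 libraries fall into control and CRISPR libraries, so r is given as a description without a p. Replicate 1 of each CRISPR group was the lowest of its group in Ccnd1, Cdk6, Gli1 and Hhip. Mycn and Rb1 did not share this. Mycn was highest in Ofd1 CRISPR replicate 1, at 57.4, 48.7 and 52.2 CPM in replicates 1, 2 and 3. Rb1 was higher in Kif3a CRISPR replicate 1 than in replicate 2, at 60.04 and 52.6 CPM. The summed E2F targets were also lowest in replicate 1 of each CRISPR group, at 4582, 5147 and 5251 CPM in Ofd1 CRISPR, 4613 and 5017 CPM in Kif3a CRISPR, and 5562 and 5562 CPM in GFP control libraries.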

How the data were processed

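Poly-A RNA of 7 SMB21 libraries was sequenced with a stranded kit as single-end reads, per the labels' protocols. The authors deposited raw counts, whole numbers of reads per gene symbol, without normalization. Per the submitters' processing notes, STAR, DESeq2 and mm9 were involved; neither versions nor roles are stated. No counter, annotation, strand setting or rule for reads with several matches is given in the sources used here, so genes with overlapping neighbours or near-identical copies can be off by an unknown amount.

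Of 24047 genes, 6795 had no count and 12875 passed filterByExpr; these held 99.96% of counts. One edgeR 4.0.16 model (R 4.3.3) with TMM factors held a mean for each group and all 7 libraries, which left 4 residual degrees of freedom, and contrasts were taken to the quasi-likelihood F test. That test moderates the spread of each gene with that of the other tested genes. Its p-values and the intervals therefore rest on more than the 4 residual degrees of freedom. P-values were adjusted by Benjamini-Hochberg over the 12875 genes, and a gene is called where the adjusted p is under 0.05. Where no tool is named, an adjusted p comes from edgeR. The biological coefficient of variation was 7.43%. Fold changes are log2 with the group named first on top. Reads carry no molecular identifiers, so limits from counts cover counting error only. Within groups, chi-square per degree of freedom between replicates was 4.00 to 13.9, so no pair of replicates agreed within sampling noise.

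Lengths are those of GENCODE M21 protein-coding transcripts and promoters are from RefSeq, both GRCm38. Shares were compared by exact two-sided permutation tests over libraries (scipy 1.17.1). The script was tested on simulated data. Alternatives were DESeq2 1.42.0, other scaling and filters, the compared groups alone, a replicate block, other transcript lengths and leaving out each library. The 10 genes and the gene lists were chosen with earlier results of these data known. Named are the 10 genes, Ofd1 and Kif3a, Cdkn1a, Gli1, Ptch1, Hhip and Mycn, up to 3 called genes with the smallest adjusted p per list and comparison, and the 5 genes most like Ccnd1. Tyms, Mki67, Cdkn2a, Cdkn2b, the named cell markers and other alternative calls were named after their values were seen. The GC box was added to the motif search after the data were seen.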

Additional observations from a re-analysis of the deposited data

Results flagged for a closer look

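The Ofd1 transcript differed between the CRISPR groups, by −0.53 on the log2 scale in Ofd1 CRISPR against Kif3a CRISPR (edgeR's quasi-likelihood test, adjusted p = 0.0399). It had 21.0, 20.03 and 22.0 CPM in Ofd1 CRISPR, 31.7 and 29.0 CPM in Kif3a CRISPR, and 22.6 and 23.2 CPM in GFP control libraries. The Kif3a CRISPR libraries were the high ones, at 0.41 over GFP control (adjusted p = 0.0126), but did not pass with a single control, at 0.103 with replicate 1 left out and 0.0639 with replicate 2 left out, or when Kif3a CRISPR replicate 1 was dropped (0.114).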

How the results depend on the processing

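Leaving out 1 library at a time gave 664 to 2831 called genes for Ofd1 CRISPR against GFP control (1915 with all), 686 to 3119 for Kif3a CRISPR against GFP control (2584) and 0 to 50 for Ofd1 CRISPR against Kif3a CRISPR (23), and between 1 and 4 of the 10 genes called lower in each comparison with GFP control. Between the CRISPR groups 86 genes were called by DESeq2 and 80 without a filter, and DESeq2 called 1 of the 10 higher, Ccnd3. In Ofd1 CRISPR against GFP control, 57.5% of 2006 calls were higher with library totals alone and 45.6% of 1915 with TMM factors. Over other settings and genes, 107 of 126 values for Ofd1 CRISPR and 115 of 126 for Kif3a CRISPR against GFP control kept direction and call, as did 110 of 126 for Ofd1 CRISPR against Kif3a CRISPR. Depth limits Cdkn1c and Cdkn2d, and 2 control libraries limit every comparison with GFP control.

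Replicate numbers are shared between groups, but the labels tie them to no batch. Deviations of same-numbered libraries correlated at 0.146 and 0.153 for Ofd1 CRISPR with GFP control and −0.00102 for Kif3a CRISPR with GFP control. For Ofd1 CRISPR with Kif3a CRISPR they correlated at 0.276 and 0.207. Differently numbered libraries of these CRISPR groups correlated at −0.276, −0.207, −0.106 and 0.106. The 2 Kif3a CRISPR libraries deviate from their mean by opposite amounts, so these values come in pairs of opposite sign. Whether a number marks a shared batch was not tested. With the replicate number as a block, 3496 genes were called for Ofd1 CRISPR against GFP control, including 1 of the 10 higher, Ccnd2 (0.26, adjusted p = 0.0418), and 191 for Ofd1 CRISPR against Kif3a CRISPR, including 1 of the 10 higher, Ccnd3 (adjusted p = 0.0298). With this block the E2F targets called lower were 10 in Ofd1 CRISPR (4 without it) and 10 in Kif3a CRISPR (5 without it) against GFP control, and of the proliferation and mitosis markers 5 were called lower (1 without it) and 1 higher (0 without it) in Ofd1 CRISPR. Ccne2 was called lower in Kif3a CRISPR against GFP control with this block by edgeR (−0.41, adjusted p = 0.00631).

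Every value that changed sign was uncalled. Cdkn2d in Ofd1 CRISPR against GFP control turned to −0.0036 with RLE factors, −0.0040 with DESeq2, −0.0013 without a filter, −0.000071 with a CPM filter and −0.023 with the replicate block, and ran from −0.17 to 0.19 with 1 library left out. With 1 library left out of Kif3a CRISPR against GFP control, Cdk4 ran from −0.14 to 0.023, Cdkn2c from −0.024 to 0.043 and Cdkn2d from −0.76 to 0.23. In Ofd1 CRISPR against Kif3a CRISPR these ranges were −0.061 to 0.23 for Ccnd1, −0.027 to 0.18 for Ccnd2, −0.074 to 0.086 for Cdk4, −0.095 to 0.14 for Cdk6, −0.23 to 0.76 for Cdkn2d and −0.12 to 0.088 for Rb1, and with the replicate block Cdk4 was −0.020 and Cdk6 −0.013. The cause was not tested.

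Shares depend on transcript length, and the D cyclin sum was not repeated with other lengths. With the median length the Ccnd1 share was 12.3% in Ofd1 CRISPR, 12.4% in Kif3a CRISPR and 18.8% in GFP control libraries, and with raw counts 34.5%, 34.8% and 46.9%. The Ccnd2 share was 79.0%, 80.3% and 70.6% with the median length and 59.6%, 60.3% and 46.8% with raw counts. The Cdkn1b share was 84.8%, 86.9% and 87.7% with the median length and 88.6%, 90.2% and 90.9% with raw counts. Without 1 library the Ccnd1 share was 41.1% to 46.3% in Ofd1 CRISPR, 40.4% to 47.4% in Kif3a CRISPR and 54.3% to 55.0% in GFP control libraries. Mean levels over all libraries with the median length were 899 CPM per kilobase for Ccnd2, 104 for Ccnd3, 624 for Cdk4, 92.8 for Cdk6, 98.4 for Cdkn1b and 13.5 for Cdkn2c, against 141, 43.6, 324, 5.62, 51.7 and 9.74 with the longest. Levels per kilobase with no length are the CPM above.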
